A study of Caenorhabditis elegans with 43 samples.

Results

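The subject is the late larval development of 1 mutant strain, let-7(n2853), of the nematode Caenorhabditis elegans, read from its own hours. The 6 libraries of this strain harvested at 26, 28, 30, 32, 34 and 36 h were chosen by strain and hour from 43 libraries in the series, 10 of them from this strain. The 3 late hours, 32 to 36 h, were set against the 3 early hours, 26 to 30 h, and the 6 libraries of the wild-type strain N2 at the same hours served as the reference. Both strains were treated alike: embryos were freed with bleach, hatched without food so that they stopped as first-stage larvae, and then fed Escherichia coli NA22 on plates, the hours being counted from feeding. Whole worms were taken, and their total RNA was sequenced after ribosomal RNA had been removed with Ribo-Zero. The let-7 microRNA itself was not measured by these libraries. The strains differ by the n2853 allele, a temperature-sensitive mutation of the let-7 microRNA gene, and no other allele or agent is named for either. Each hour is 1 library, and the labels do not say whether the hours of a strain came from 1 synchronised culture. The p-values therefore measure the spread between libraries of different hours, in which change with the hour and technical spread cannot be told apart. In whole worms, fewer cells of a type and less RNA per cell cannot be told apart.

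As background, let-7 is a small RNA that accumulates late in larval life and represses lin-41, and through that step it helps the epidermis leave its larval programme and adopt the adult one. Larvae shed and rebuild their collagen cuticle at every molt, and many epidermal genes rise and fall with each cycle. Over the last larval stage the hermaphrodite gonad makes sperm and then turns to oocytes, and the intestine of the adult makes the yolk proteins that oocytes take up.

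Expression is given as CPM, the count of a gene per 1000000 counts of its library after scaling for library size. CPM are not divided by gene length, so they are compared within a gene only. Values are listed by hour, the early hours first. The 3 hours of a window are not repeats of a single state, and the edgeR test of the windows called 0 of 13333 genes in let-7(n2853) at an adjusted p under 0.05 (0.0%), against 1796 in N2 (13.5%). Of the same genes 3130 had an unadjusted p under 0.05 in let-7(n2853) (23.5%), DESeq2 called 1920 and limma 1642. Change by the hour was therefore read in other ways. In the first, the slope of log2 CPM over 26 to 36 h was tested in edgeR and is given as the log2 change over 6 h ± its standard error (SE), and "rose" and "fell" below are calls of that slope at an adjusted p under 0.05 unless the 8 h change is named. The 8 h change compares 34 and 36 h with 26 and 28 h and was added after the hour courses had been seen. Its fit pairs 34 h with 26 h and 36 h with 28 h in each strain, hours about 1 molting cycle apart. Its SE and p-values therefore measure how well the paired changes of a strain match each other, with 2 residual degrees of freedom.

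Depth differed between the strains: the 6 let-7(n2853) libraries held 25763557 to 29733057 counts and the 6 N2 libraries 12586079 to 16118437. By the slope 2055 genes rose in let-7(n2853) (15.4% of those tested) and 604 fell (4.53%), while 2555 rose (19.2%) and 1177 fell (8.83%) in N2. The risers were largely shared, with 1972 genes called in both strains, which is 96.0% of the let-7(n2853) risers and 77.2% of the N2 risers. Among the genes that fell, 441 were shared, 73% of those of let-7(n2853) and 37.5% of those of N2. Of 1511 genes that rose at least 2-fold in N2, 93.4% were called as rising in the mutant, and of 107 that fell at least 2-fold in N2, 34.6% were called as falling in the mutant. The difference in slope between the strains was called for 0 genes (0.0%), and the difference between the window changes for 0 genes too (0.0%, with 0.998% at an unadjusted p under 0.05), or for 5 genes with the hour as a replicate block. On simulated counts, with differences placed in well-counted genes only, the test of the slope difference recovered 8% of 2-fold differences, and that of the window difference 1%. Calls of 0 genes therefore do not show that the strains changed alike. The share of N2 slope calls that were higher was 68.5%, or 56.2% with plain library size in place of the main scaling. Leaving out the let-7(n2853) library of 36 h kept 1837 of the 2659 slope calls of this strain in the same direction, and leaving out that of 26 h kept 1732.

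Germline genes rose in let-7(n2853) during these hours. Of 24 genes of meiosis 22 rose and 0 fell, with a median log2 change of 0.61 over 6 h beside 0.00 for all genes tested. In N2 all 24 rose. Against N2 at the same hour, 13 of the 24 were lower in the mutant at 32 h, 24 at 34 h and 20 at 36 h. The median log2 differences were -0.02, -0.31 and -0.22. Over all tested genes 7537 of 13333 were lower at 34 h, with a median of -0.06. In 18 of the 24 genes the 3 late values of the mutant all lay above the 3 early ones, a pattern seen in 17.3% of all genes. The polo kinase gene plk-2 (WBGene00004043, chromosome I), which acts in chromosome pairing, was at 51.9, 50.8 and 63.4 CPM in the early hours and at 91.4, 103 and 111 CPM in the late hours. The late values lay clear of the early ones, and plk-2 rose by 0.80 ± 0.10 on the log2 scale (adjusted p = 0.0007, edgeR). The chromosome axis gene htp-3 went from 46.9, 52.7 and 67 CPM to 78.5, 88.6 and 95.6 CPM without overlap and rose by 0.68 ± 0.09 (adjusted p = 0.00065, edgeR). For dsb-1, needed for the DNA breaks that start recombination, the early values were 8.27, 10.7 and 13.1 CPM and the late ones 16.3, 21.2 and 28 CPM, each hour above the hour before. Its slope was 1.06 ± 0.08 in let-7(n2853) and 1.42 ± 0.09 in N2. The recombinase gene rad-51 was at 26.3, 28.1 and 26.7 CPM and then 27.2, 30.2 and 32.7 CPM, a slope of 0.19 ± 0.06 that was not called (adjusted p = 0.076, edgeR).

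Genes that keep the germline stem cell pool or lead cells out of it gave a mixed picture. Of 10 tested, 3 rose, and 1 of these calls remained without the 26 h library of the mutant. The gene gld-1, a translational repressor of cells that have entered meiosis (WBGene00001595, chromosome I), was at 14.9, 23.3 and 26.5 CPM and then at 40.6, 66.1 and 108 CPM. It increased at every hour, the windows did not overlap, and the slope was 1.69 ± 0.13 (adjusted p = 0.00016, edgeR) beside 1.77 ± 0.13 in N2. The stem cell Notch receptor gene glp-1 was at 88.6, 102 and 80.1 CPM and then 86.8, 100.3 and 121 CPM, values that overlap (adjusted p = 0.15, edgeR). The stem cell gene lst-1 was not called either, at 11.1, 10.5 and 13.7 CPM and then 16.22, 15.5 and 13.8 CPM.

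Germ granules, the RNA-rich bodies around germ cell nuclei, were represented by 18 genes, of which 17 rose with a median log2 change of 0.60. Without the 36 h library of the mutant 10 of them were called. The Argonaute gene csr-1 was at 122.3, 158 and 180.8 CPM in the early and 224, 280.1 and 302 CPM in the late hours. Every hour was above the last, and csr-1 rose by 0.82 ± 0.07 (adjusted p = 0.00017, edgeR). The granule scaffold gene pgl-1 stood at 138, 151 and 198 CPM and then 231, 290.3 and 316 CPM, again without overlap, and rose by 0.80 ± 0.07. The gene ekl-1, the member that was not called, was at 103.5, 96.4 and 103 CPM and then 105, 116 and 109 CPM.

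Oocyte genes rose as well. Of 15 genes for RNA regulators and other proteins of the oocyte 14 rose, with a median log2 change of 1.47 beside 1.69 in N2, and 8 remained called without the 36 h library of the mutant. The RNA-binding protein gene puf-5 was at 0.772, 1.31 and 1.38 CPM and then at 1.31, 4.49 and 13.3 CPM. Its 32 h value lay within the early range and its last value was the highest, and it rose by 2.33 ± 0.40 (adjusted p = 0.0021, edgeR), a call lost without the 36 h library. The gene mex-5, which patterns the early embryo from maternal stores, was at 4.38, 11.1 and 10.9 CPM and then 15.3, 21.9 and 33.6 CPM. Its late values were all above the early ones, with a slope of 1.53 ± 0.17 beside 1.57 ± 0.16 in N2. For the maternal regulator pos-1 the values were 1.64, 2.22 and 2.01 CPM and 2.84, 4.53 and 12.5 CPM, and its slope was 1.64 ± 0.26. At 32, 34 and 36 h all 15 members were lower in let-7(n2853) than in N2, with median log2 differences of -0.58, -0.80 and -0.57. Over all tested genes 6548 of 13333 were lower at 36 h, and the median was 0.01. Set against N2 at 34 h in place of 36 h, the 36 h mutant library had a median difference of 0.03 over these members, with 6 of 15 lower.

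Eggshell and fertilisation genes rose in 11 of 12 cases in each strain. Against N2 at the same hour, 12 of 12 were lower in the mutant at 32 and 34 h and 11 at 36 h. The median log2 differences were -0.68, -1.22 and -0.65. Against N2 at 34 h the 36 h mutant library had 7 of 12 lower, with a median of -0.06. The chondroitin proteoglycan gene cpg-1 (WBGene00000465, chromosome III), whose product lines the eggshell, was at 5.41, 11.6 and 8.86 CPM and then at 13.7, 27.7 and 83.7 CPM, beside 7.57, 11 and 13.7 and then 24.5, 88.7 and 135 CPM in N2. In the mutant the last value stood far above the other 5, and cpg-1 rose by 2.13 ± 0.31 (adjusted p = 0.001, edgeR). The vitelline layer gene cbd-1 was at 55.9, 95.0 and 94.5 CPM and then 112, 169 and 314 CPM, without overlap, and rose by 1.33 ± 0.14. The gene egg-3, a protein of the oocyte-to-embryo transition, was at 2.35, 3.13 and 4.17 CPM and then 5.38, 7.43 and 12.3 CPM and increased at each hour (slope 1.40 ± 0.10). The gene perm-2, which belongs to the permeability barrier of the eggshell, had no count at 26, 28 and 30 h and was at 0.0374, 0.34 and 5.19 CPM in the late hours. Its late mean was at least 52.8-fold higher than the limit that a count of 0 allows, 3 counts over the 3 early libraries together or 0.0351 CPM. Of 11 genes of the early embryo 0 passed the filter, and their highest value was 0.32 CPM in let-7(n2853) and 0.303 CPM in N2.

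Sperm genes rose in nearly all cases. Of 34 tested 32 rose and 1 fell, and the median log2 change of the list was 4.88 over 6 h. Members near 0 in the early hours passed the filter through their late values, so for these the rise was set by the filter. With a filter of at least 5 mean CPM, which leaves fewer of them to test, 21 were called as rising. In 32 of 34 the late values all lay above the early ones, and in 1 all lay below, which was seen in 11.7% of all genes. Against N2 at the same hour, 21 of 34 were lower in the mutant at 32 h, 31 at 34 h and 15 at 36 h. The gene spe-11 (WBGene00004965, chromosome I), which encodes a factor that sperm bring to the egg, was at 0.0322, 0.236 and 8.05 CPM and then at 31.2, 84.8 and 201 CPM. It was near 0 at 26 and 28 h and rose by 6.49 ± 0.88 (adjusted p = 0.00083, edgeR), beside 6.12 ± 0.89 in N2. The sperm surface protein gene spe-9 was at 0.225, 0.27 and 1.2 CPM and then 4.07, 6.30 and 9.98 CPM, with no overlap and a slope of 3.60 ± 0.46. For nspd-7 the early values were 0.772, 1.11 and 2.40 CPM and the late ones 15.6, 35.6 and 52.8 CPM, a rise of 4.19 ± 0.53. Of the 30 genes for major sperm protein, the cytoskeletal protein that drives the crawling of nematode sperm, 5 passed the filter, and the 5 rose. The 30 together reached at most 1.94 CPM at an early hour of the mutant and 2.35 CPM in N2. A member could therefore pass only by being high late, and the count of risers was set by the filter. These copies are nearly identical, and reads may be shared between them. The gene msp-142 was at 0, 0.135 and 1.2 CPM and then 9.05, 25.3 and 31.5 CPM.

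The member of the sperm list that fell was fog-1, which commits germ cells to the sperm fate. Its values were 34, 39.5 and 27.1 CPM in the early and 17.7, 9.89 and 8.63 CPM in the late hours of let-7(n2853). All late values lay below the early ones, and fog-1 fell with a slope of -1.42 ± 0.25 (adjusted p = 0.0026, edgeR) beside -1.62 ± 0.25 in N2. The gene fog-3, with the same role, was at 3.83, 5.86 and 6.50 CPM and then 4.56, 2.42 and 2.1 CPM and was not called (-0.77 ± 0.52). The gene snpc-1.3, a factor for piRNAs of the male germline, fell from 13.1, 13.4 and 11.6 CPM to 7.85, 3.09 and 1.07 CPM (slope -2.04 ± 0.56, adjusted p = 0.026, edgeR). The 36 h value of snpc-1.3 was the lowest, and its call was lost without the library of 28, 34 or 36 h of the mutant.

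**Figure D1:**
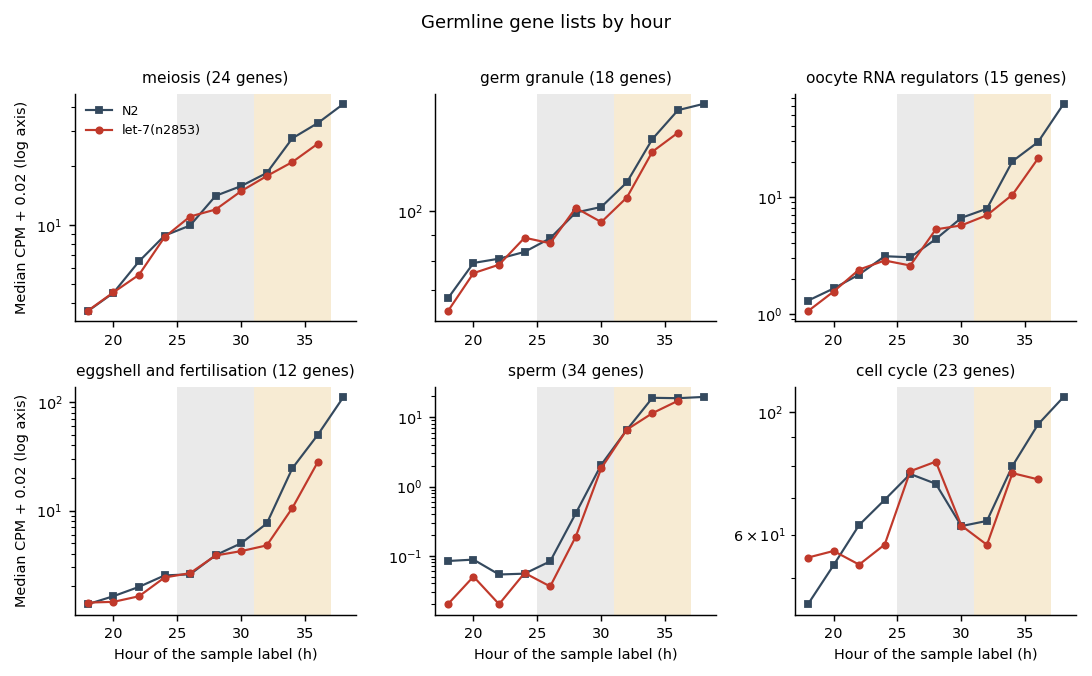
Median CPM of the tested members of 6 germline and cell cycle lists at each hour, on a log axis after adding 0.02, with red circles for let-7(n2853) and dark squares for N2. Grey shading marks 26 to 30 h and tan shading 32 to 36 h. Both strains climb in the germline panels, and the eggshell and oocyte medians of the mutant lie under those of N2 at 32, 34 and 36 h.

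Of 23 cell cycle genes 5 rose and 0 fell, a share near the 15.4% of all tested genes that rose, and 2 rose with a filter of at least 5 mean CPM. The 5 were the cyclin B genes cyb-1, cyb-2.1 and cyb-2.2, the cyclin E gene cye-1 and the spindle checkpoint kinase gene bub-1. The gene cyb-1 was at 12.1, 18.1 and 15.7 CPM and then 25.3, 38.5 and 71.5 CPM, without overlap, a slope of 1.46 ± 0.18 in let-7(n2853) and 1.45 ± 0.18 in N2. The gene mcm-2, a subunit of the replicative helicase, was at 112, 97.1 and 75.5 CPM and then 80.7, 102 and 90.7 CPM, windows that overlap (slope -0.08 ± 0.12).

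Molting effectors as a list were low at 30 and 32 h in let-7(n2853) and higher again at 34 and 36 h. The median of the 25 tested was 174 and 214 CPM at 26 and 28 h, 64.5 and 43.7 CPM at 30 and 32 h, and 181.4 and 173 CPM at 34 and 36 h. For the 12 molting regulators the medians by hour were 32.8, 39.7 and 22.0 CPM and then 23.1, 32.6 and 34.5 CPM. These courses are descriptions, with no test of a cycle. Of 12 molting regulators 0 rose and 1, nekl-3, fell by the slope, a call lost without the 26 h or the 36 h library of the mutant, and of 25 molting effectors 0 rose and 0 fell. By the 8 h change, which called 15% of all genes as higher and 7.31% as lower, 0 regulators rose and 3 fell, and 1 effector rose and 1 fell. Without the library of 28 h or of 36 h of the mutant 0 regulators were called and 3 effectors rose, while without that of 26 h or of 34 h 6 regulators fell, with 3 or 4 effectors falling. The nuclear receptor gene nhr-23 (WBGene00003622, chromosome I), a driver of molting gene expression, was at 65.2, 31.1 and 41.8 CPM and then at 68.3, 59.1 and 41.6 CPM. It was high at 26 h, low at 28 h and high again at 32 and 34 h, and its 8 h change was 0.14 ± 0.18 in let-7(n2853) and 0.07 ± 0.19 in N2. The zinc-finger gene bed-3 was at 25.7, 102 and 21.4 CPM and then 9.34, 28.9 and 63.1 CPM, with its high points at 28 and 36 h. In N2 the values of bed-3 were 59.2, 71.5 and 23 and then 6.78, 55.8 and 59.7 CPM.

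Of the effectors, mlt-10, mlt-11 and nas-37 were picked after their values were seen. The gene mlt-10, needed to shed the old cuticle (WBGene00015646, chromosome II), was at 187, 519.6 and 93.7 CPM and then 43.7, 289 and 375 CPM. It dipped at 30 and 32 h and returned at 34 and 36 h, and its 8 h change was 0.08 ± 0.24 (adjusted p = 0.87, edgeR). The astacin protease gene nas-37, which digests the old cuticle, was at 349, 378 and 64.5 CPM and then 90.5, 447 and 324 CPM, with an 8 h change of 0.07 ± 0.15. The protease inhibitor gene mlt-11 was at 2806, 2098 and 299 CPM and then 1229.7, 2832 and 1216 CPM, lowest at 30 h and back at its 26 h level at 34 h. In N2 at 38 h, an hour at which the series has no library of the let-7(n2853) strain, mlt-10 was at 267 CPM, nas-37 at 90.4 CPM and mlt-11 at 327 CPM.

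Annular furrow collagens, which shape the rings of the cuticle, came on again in the late window of both strains. The gene dpy-7 (WBGene00001069, chromosome X) was at 776, 325 and 71.3 CPM and then at 289.5, 595 and 228 CPM in let-7(n2853), and at 493, 208 and 80.3 and then 316, 326 and 158 CPM in N2. The mutant was high at 26 h, lowest at 30 h and high again at 34 h, so the windows overlap. For 6 of 6 furrow collagens the slope was not called in either strain. The 8 h change fell for 3 of 6 in the mutant and 6 of 6 in N2 (background 14.5% lower and 19.9% higher), with medians of -0.43 and -0.47, and the 3 calls of the mutant were lost without its 36 h library. With plain library size 5 of 6 fell in the mutant. The gene dpy-10 was at 338, 138 and 27.7 CPM and then 118.9, 229 and 94.7 CPM, an 8 h change of -0.55 ± 0.10 in let-7(n2853) and -0.64 ± 0.11 in N2. At 36 h, 0 of 6 were lower in the mutant than in N2, with a median log2 difference of 0.50. Set against N2 at 34 h in place of 36 h, the same mutant library had 6 of 6 lower, with a median of -0.66. The sign of this difference therefore depends on the hour that is matched.

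**Figure D2:**
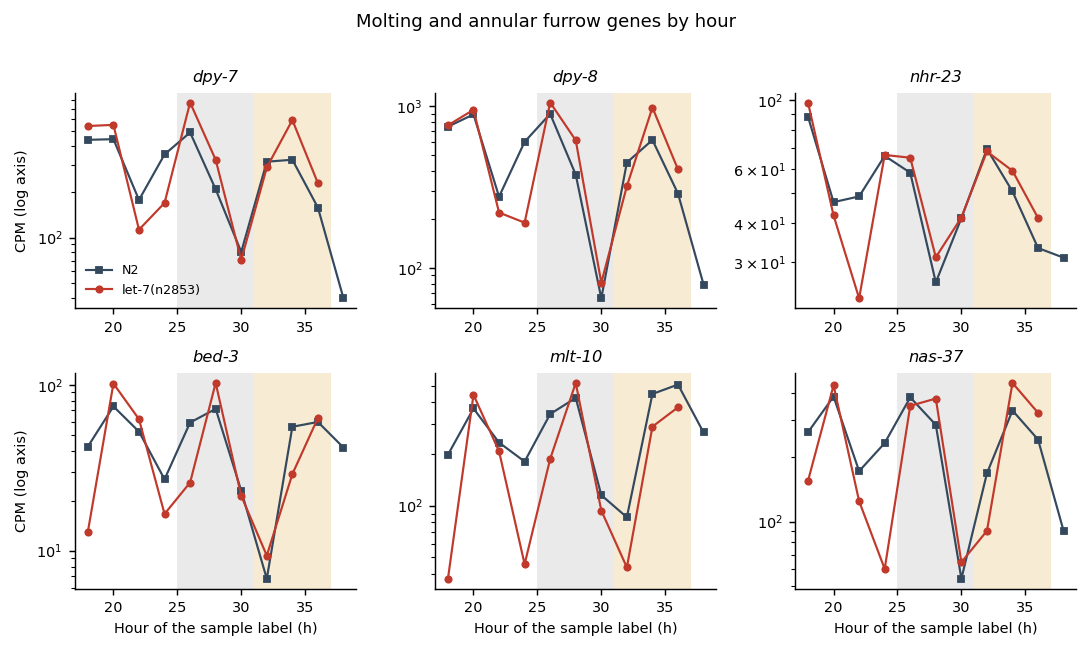
CPM of 6 genes of the molting cycle at each hour on a log axis, red circles for let-7(n2853) and dark squares for N2, with grey shading for 26 to 30 h and tan shading for 32 to 36 h. The furrow collagens dpy-7 and dpy-8 fall to a low point at 30 h and come back by 34 h in both strains, and mlt-10 and nas-37 come back after low points at 30 and 32 h.

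A difference between the strains was called for 1 molting effector, wrt-4, a hedgehog-related gene. It was at 75.3, 113 and 20.8 CPM and then 12.7, 97.2 and 103 CPM in let-7(n2853), and at 112, 129 and 33 and then 31, 501 and 596 CPM in N2. The mutant returned at 34 and 36 h to about its early high points, while N2 climbed well above them. The 8 h changes were 0.11 ± 0.14 and 2.19 ± 0.14, and their difference was called (-2.08 ± 0.19, adjusted p = 0.01, edgeR). Such a difference was called for 10 genes as higher in the mutant (0.075% of those tested) and for 26 as lower (0.195%), and 13 of the 36 calls remained without the 36 h library of the mutant.

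Cuticle collagens of the fourth stage and of the struts of the adult cuticle did turn on in let-7(n2853), to lower levels than in N2. By the slope 2 of 5 rose in the mutant and 5 of 5 in N2, and by the 8 h change 5 of 5 rose in both strains, with median log2 changes of 3.59 in let-7(n2853) and 8.11 in N2. The gene bli-1, a collagen of the struts that hold the 2 layers of the adult cuticle together (WBGene00000251, chromosome II), was at 1.19, 1.69 and 0.742 CPM and then at 21.7, 163 and 94.3 CPM in the mutant. In N2 its values were 2.78, 1.68 and 21.6 and then 822, 1968 and 1632 CPM. Each late value lay above every early value in both strains, and the mutant rose by 5.06 ± 1.32 (adjusted p = 0.021, edgeR), a call lost without its library of 26 or 28 h. The other strut collagen, bli-2, was at 19.9, 19 and 2.93 CPM and then 36.5, 259 and 211 CPM in let-7(n2853) and at 22.8, 19.6 and 12.6 and then 385, 1051 and 984 CPM in N2. Both strains peaked at 34 h. The 8 h change of bli-2 was 3.59 ± 0.12 in the mutant and 5.58 ± 0.13 in N2, and their difference of -2.0 ± 0.16 was called (adjusted p = 0.0058, edgeR).

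The gap was wider for col-38 (WBGene00000615, chromosome II). Its values in let-7(n2853) were 11.1, 23.1 and 6.71 CPM and then 4.63, 77.8 and 128 CPM, against 15.8, 21.1 and 18.1 and then 719, 4635 and 5511 CPM in N2. The mutant windows overlap, since the 32 h value was the lowest of the 6, and the 34 and 36 h values lay above all others. Its 8 h change was 2.63 ± 0.15 in the mutant and 8.11 ± 0.19 in N2, a difference of -5.48 ± 0.21 (adjusted p = 0.00026, edgeR). At 36 h the level in N2 was 43.2 times that in the mutant. The gene col-49 was at 4.18, 11.9 and 2.51 CPM and then 1.91, 24.4 and 45.1 CPM, with an 8 h change of 2.2 ± 0.17 beside 7.26 ± 0.20. The gene col-63, near 0 through 30 h, was at 0.635, 48.9 and 77.5 CPM in the late hours of the mutant and at 75.5, 1407 and 1803 CPM in those of N2. Its slope in the mutant was 9.36 ± 1.74 (adjusted p = 0.0035, edgeR), and the difference in its 8 h change was not called (adjusted p = 0.95, edgeR). At 36 h the 5 genes of the list were all lower in the mutant, with a median log2 difference of -4.54, and against N2 at 34 h the median was -4.38. Against N2 at 32 h the same mutant library had 4 of 5 lower, with a median of -0.96. The size of this gap therefore depends on the hour that is matched.

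Adult cuticle collagens stayed at a few CPM or under through 36 h in let-7(n2853). Of 6 listed genes 4 passed the filter, col-7 and col-62 having no count in either strain from 26 to 36 h. The 4 passed it through their late N2 values, so their rise in N2 was set by the filter. The gene col-19, the usual marker of the adult epidermis (WBGene00000608, chromosome X), was at 0.0322, 0.169 and 0.0706 CPM and then at 0.224, 0.264 and 3.23 CPM in the mutant. In N2 it was at 0.0631, 0.194 and 0.152 and then 0.161, 54.3 and 331 CPM, and at 1312 CPM at 38 h. The late values of the mutant lay above the early ones, the 36 h value standing apart, and col-19 rose by 3.85 ± 1.03 (adjusted p = 0.024, edgeR). That call was lost without its library of 26, 30 or 36 h. The difference in 8 h change from N2 was -6.45 ± 0.78 and was called (adjusted p = 0.037, edgeR), also a call lost without the 36 h library. The gene col-120 was at 0.0965, 0.506 and 0.6 CPM and then 0.486, 0.83 and 1.74 CPM in let-7(n2853), windows that overlap, against 0.505, 0.842 and 0.759 and then 0.565, 391.7 and 829 CPM in N2. Its difference was -7.69 ± 0.55 (adjusted p = 0.0043, edgeR). For col-119 the 36 h level was 2.56 CPM in the mutant and 101 CPM in N2, and for col-122 1.07 and 525 CPM, and neither difference was called. The list rose by the 8 h change in 4 of 4 genes in both strains, with medians of 3.81 and 10.49, and without the 28 h or the 36 h library of the mutant 2 were called in it. The 36 h library of the mutant had 4 of 4 lower than N2 at 36 h and at 34 h, with median log2 differences of -7.79 and -5.69. Against N2 at 32 h it had 4 of 4 higher, with a median of 2.97.

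**Figure D3:**
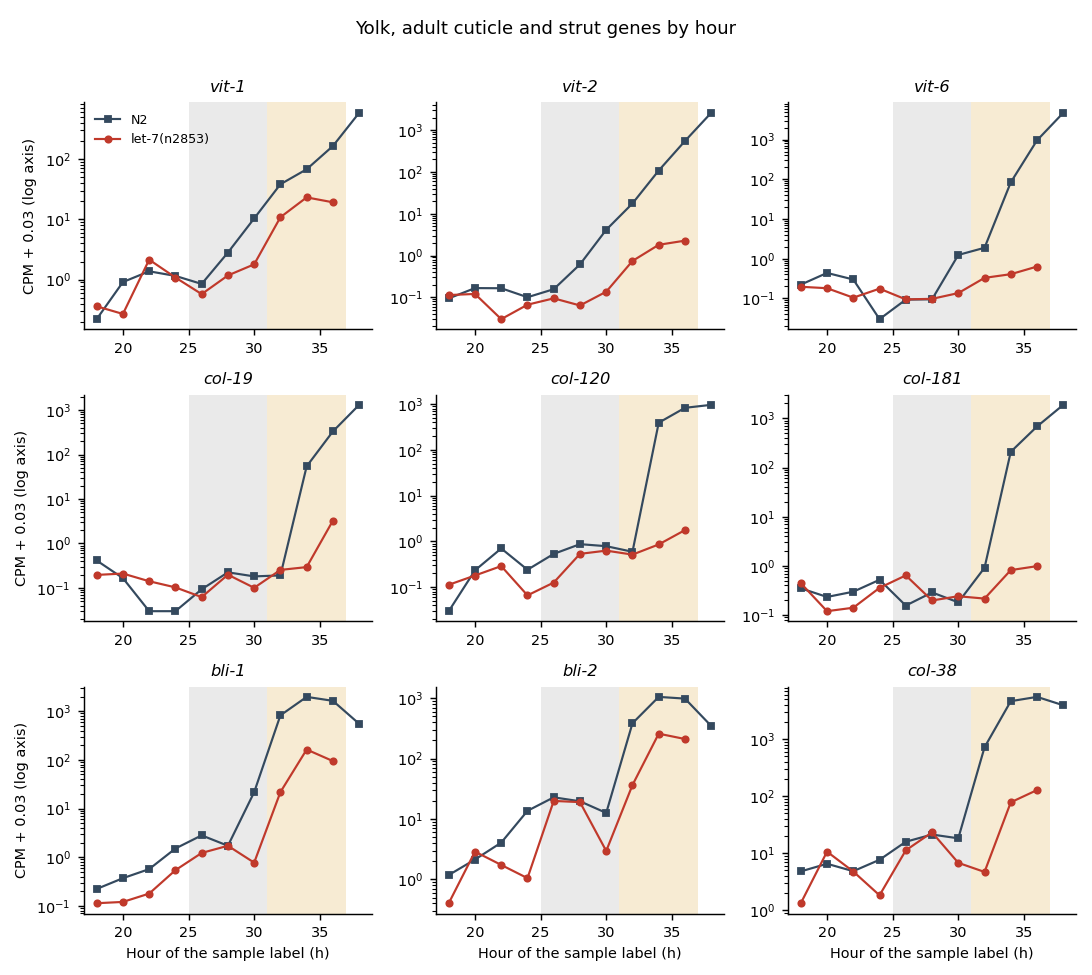
CPM of 3 yolk protein genes, 3 late collagens of the adult epidermis and 3 collagens of the struts or the fourth stage at each hour, on a log axis after adding 0.03, with red circles for let-7(n2853) and dark squares for N2. Grey shading marks 26 to 30 h and tan shading 32 to 36 h. The strut collagens climb in both strains, to lower levels in the mutant, while col-19, col-120 and col-181 stay near the floor in the mutant as N2 climbs.

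Over the 124 numbered collagen genes tested, the slope rose for 9 and fell for 0 in let-7(n2853), and rose for 31 and fell for 4 in N2. Over all tested genes it rose for 15.4% and fell for 4.53% in let-7(n2853), and rose for 19.2% and fell for 8.83% in N2. In this fit the collagen count of the mutant was under the share of all genes that rose. The count was 16 with DESeq2, 19 with the mutant alone in the fit and 2 with limma. Its place beside the share of all genes therefore depends on the fit. The 9 collagens that rose in the mutant were called in N2 too. By the 8 h change 42 rose and 4 fell in the mutant, while 56 rose and 23 fell in N2. Of the 56 collagens that rose in N2, 37 also rose in the mutant, and of the 23 that fell, 3 also fell there and 1 rose. The difference of the 8 h changes was called as lower in the mutant for 14 of the 124 and as higher for 4, or for 5 and 3 without its 36 h library, which also leaves 20 genes rising and 0 falling in the mutant. The gene col-71 was at 5.12, 11.8 and 4.73 CPM and then 5.72, 70.7 and 173 CPM in let-7(n2853) and reached 3280.2 CPM at 36 h in N2. It rose by 2.95 ± 0.79 in the mutant (adjusted p = 0.024, edgeR), and its difference in 8 h change was -3.99 ± 0.21. The gene col-138 was at 0.708, 3.67 and 1.38 CPM and then 4.75, 102 and 253 CPM, without overlap, and rose by 5.07 ± 0.99. The gene col-181 stayed at 0.611, 0.169 and 0.212 CPM and then 0.187, 0.792 and 0.959 CPM in the mutant while N2 was at 0.126, 0.259 and 0.152 and then 0.887, 209 and 682 CPM. The difference of col-181, -9.95 ± 0.80, was the most negative among the 35 genes with a symbol that were called (adjusted p = 0.0058, edgeR).

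A smaller set went the other way, genes whose 8 h change fell in N2 and was not called in let-7(n2853), all with a called difference. They were singled out after their values were seen. The gene col-41 (WBGene00000618, chromosome X) was at 865, 3887 and 1518 CPM and then at 524, 1143 and 2756 CPM in the mutant, with high points at 28 and 36 h. In N2 it was at 2618, 4289.9 and 2614 CPM in the early hours and at 253, 49.5 and 35.4 CPM in the late hours. The windows overlap in the mutant and lie far apart in N2. The 8 h change was -0.05 ± 0.31 in let-7(n2853) and -6.32 ± 0.39 in N2, a difference of 6.27 ± 0.48 (adjusted p = 0.0052, edgeR). The gene col-90 was at 1330.1, 3240.0 and 1221 CPM and then 482, 1698 and 3329.6 CPM in the mutant against 1955, 2768 and 1487 and then 134, 121 and 156 CPM in N2, and its difference was 4.27 ± 0.21 (adjusted p = 0.00068, edgeR). Its last value in the mutant was its highest. The gene dpy-1, a body-shape gene, was at 17.8, 99.4 and 69.1 CPM and then 21.4, 19.7 and 63.8 CPM, while N2 ended at 2.17 CPM. The gene oac-29, whose name marks it as a predicted acyltransferase, was at 133, 265 and 65.1 CPM and then 39.4, 230.2 and 255 CPM, against 6.37, 5.52 and 2.41 CPM in the late hours of N2. Its 36 h level was close to its 28 h level in the mutant, and the difference was 5.6 ± 0.47 (adjusted p = 0.0064, edgeR).

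The gene daf-9, a cytochrome P450 that makes the ligand of the nuclear receptor DAF-12, belongs to the same set. It was at 35.3, 34 and 38.4 CPM and then at 35.4, 29.1 and 28.9 CPM in let-7(n2853), and at 39.2, 30.6 and 31 and then 21.4, 8.80 and 4.18 CPM in N2. It stayed between 28.9 and 38.4 CPM in the mutant and was lower at each late hour in N2, and the difference in 8 h change was 2.21 ± 0.25 (adjusted p = 0.028, edgeR). The molting regulator nhr-25, a nuclear receptor of the epidermis, was lower in the late hours of N2 too, and had no called difference. It was at 18.6, 48.2 and 28.3 CPM and then 14, 18 and 23.7 CPM in the mutant, and at 30.1, 41.3 and 31.9 and then 10.2, 6.43 and 6.59 CPM in N2. The gene nhr-25 fell in N2 (-1.82 ± 0.46, adjusted p = 0.015, edgeR) and was not called in let-7(n2853) (-0.39 ± 0.42), while the adjusted p of the difference in 8 h change was 0.15.

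**Figure D4:**
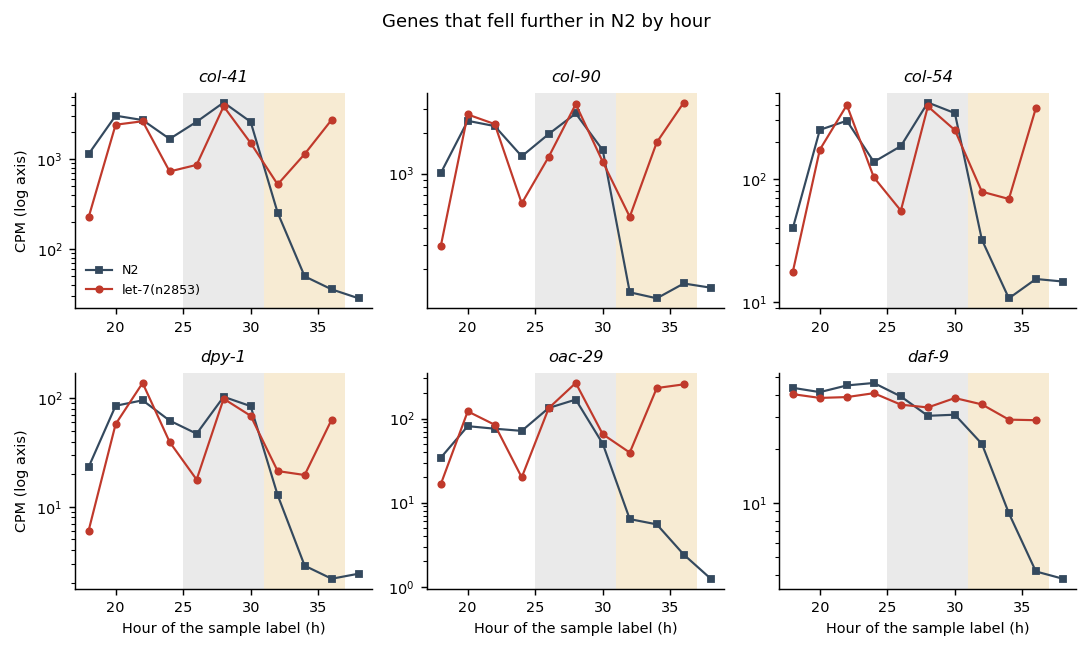
CPM of 6 genes whose 8 h change fell in N2 and was not called in let-7(n2853), at each hour on a log axis, with red circles for let-7(n2853) and dark squares for N2, grey shading for 26 to 30 h and tan shading for 32 to 36 h. The genes were chosen for this difference. At 34 and 36 h N2 lies below all its early values in each panel, and below the mutant at the same hour.

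Yolk protein genes rose to low levels in let-7(n2853). Of the 6 vitellogenins, 4 passed the filter, and by the slope 2 rose in let-7(n2853) and 4 in N2, while by the 8 h change 3 and 4 rose. The filter took the mean over the libraries of both strains, so vit-5 and vit-6 passed it through their late N2 values. For such genes the rise in N2 was set by the filter. The gene vit-1 (WBGene00006925, chromosome X) was at 0.547, 1.15 and 1.77 CPM and then at 10.8, 23.1 and 19.1 CPM in the mutant, and at 0.82, 2.79 and 10.3 and then 38.1, 67.5 and 164 CPM in N2. All late values of the mutant lay above its early ones, with the highest at 34 h, and vit-1 rose by 3.67 ± 0.49 (adjusted p = 0.0008, edgeR). The gene vit-2 (WBGene00006926, chromosome X) was at 0.0644, 0.0337 and 0.106 CPM and then at 0.71, 1.77 and 2.24 CPM in let-7(n2853), an increase at every late hour without overlap. Its slope was 3.70 ± 0.38 (adjusted p = 0.00034, edgeR). In N2 the values were 0.126, 0.583 and 4.10 and then 17.6, 108 and 550.0 CPM, and 2602 CPM at 38 h, with a slope of 7.24 ± 0.31. At 36 h N2 was at 246 times the mutant level of vit-2, which compares 1 library with 1 library.

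The gene vit-6 was at 0.0644, 0.0674 and 0.106 CPM and then at 0.299, 0.377 and 0.604 CPM in the mutant, and at 0.0631, 0.0648 and 1.21 and then 1.86, 84.0 and 961 CPM in N2. Its 6 mutant values stayed under 1 CPM without overlap between the windows, and the slope was not called (2.07 ± 0.73, adjusted p = 0.078, edgeR). The 8 h change of vit-6 was called in the mutant (2.79 ± 0.54) and in N2 (12.83 ± 0.30), and their difference missed the threshold (adjusted p = 0.059, edgeR). Neither the difference of vit-1 nor that of vit-2 was called (adjusted p = 0.58 and 0.17, edgeR), so the lower level of the mutant is given as a measurement at each hour. DESeq2 called 2 of the 4 vitellogenin differences. The gene vit-5 had no count in the 6 mutant libraries and reached 19.7 CPM at 36 h in N2. The genes vit-3 and vit-4, under the filter, had 0 and 1 counts in the late hours of the mutant and were at 5.07 and 4.74 CPM at 36 h in N2. The genes vit-3, vit-4 and vit-5 are close copies of each other, and reads may be shared among them.

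Genes that handle or regulate yolk were for the most part not called. The gene rme-2, the yolk receptor of the oocyte (WBGene00004374, chromosome IV), was at 8.56, 11.3 and 15.6 CPM and then at 17.8, 33.1 and 75.9 CPM in let-7(n2853), and at 8.08, 11.3 and 14 and then 26.5, 74.6 and 138 CPM in N2. It increased at every hour and rose by 1.81 ± 0.22 (adjusted p = 0.00053, edgeR) beside 2.56 ± 0.22 in N2. Of the 8 genes of this list 1, rme-2, rose by the slope in the mutant, 6 were not called and 1 fell, unc-62, a homeodomain activator of vitellogenin genes (-0.36 ± 0.10, adjusted p = 0.024, edgeR). That call was lost without the library of 28, 34 or 36 h. Over all tested genes 15.4% rose and 4.53% fell in the mutant, so no change of this list is read from 1 call each way. The gene unc-62 was at 32.9, 38.7 and 30.1 CPM and then 28.2, 25.3 and 23.4 CPM. The intestinal GATA factor gene elt-2 was at 27.4, 26.2 and 25.7 CPM and then 21.9, 23.5 and 20.9 CPM and was not called (adjusted p = 0.23, edgeR). The gene ceh-60, a homeodomain activator of yolk genes, was at 2.48, 1.11 and 5.51 CPM and then 4.11, 2.75 and 2.84 CPM in the mutant against 3.09, 5.25 and 8.88 and then 7.74, 8.59 and 8.84 CPM in N2. Its mutant windows overlap, and no slope was called.

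In the heterochronic pathway, which sets the order of larval fates, 2 of 13 genes fell in let-7(n2853) and 0 rose, while 6 fell and 1 rose in N2. Over all tested genes 4.53% fell and 15.4% rose in let-7(n2853), and 8.83% fell and 19.2% rose in N2. The gene lin-41, the direct target of let-7, was at 153, 162 and 135 CPM and then at 109, 105 and 107 CPM in the mutant, and at 98.7, 45.1 and 38.5 and then 28.4, 29.1 and 38.8 CPM in N2. The late values of the mutant lay below its early ones, its slope was not called (-0.39 ± 0.22, adjusted p = 0.3, edgeR), and every mutant value lay above every N2 value. The gene lin-46, which acts downstream of lin-28, was at 20.6, 25.2 and 17.9 CPM and then 8.15, 5.55 and 4.83 CPM and fell with a slope of -1.58 ± 0.29 (adjusted p = 0.0032, edgeR). The nuclear receptor gene daf-12 was at 94.4, 100.3 and 73.2 CPM and then 77.9, 63.3 and 52.8 CPM and fell with a slope of -0.50 ± 0.14 in the mutant, beside -1.21 ± 0.13 in N2, a call lost without the library of 28, 34 or 36 h. The temporal factor gene hbl-1 was at 31, 37.1 and 16.3 CPM and then 20.6, 22.3 and 16.5 CPM in let-7(n2853), with a slope of -0.54 ± 0.23 that was not called, and fell with a slope of -1.23 ± 0.24 in N2. The gene mab-10, which works together with the transcription factor LIN-29, was at 4.83, 5.26 and 2.61 CPM and then 5.46, 6.64 and 3.69 CPM in the mutant, against 11.4, 7.13 and 9.94 and then 27.6, 21.2 and 10.4 CPM in N2. All 6 mutant values of mab-10 lay below all 6 of N2, and no slope was called.

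Other tissues were read through marker lists, whose counts stand beside 15.4% of all tested genes that rose in let-7(n2853) and 4.53% that fell. Of 20 neuronal genes 11 fell in let-7(n2853) and 0 rose, with a median of -0.49, and 13 fell in N2, of which 10 also fell in the mutant. The gene mec-7, a tubulin of touch neurons, was at 65.7, 54.9 and 49.8 CPM and then 43.0, 36.7 and 31.4 CPM. It was lower at each hour than at the hour before, and fell with a slope of -0.60 ± 0.07 (adjusted p = 0.00045, edgeR) beside -0.61 ± 0.07 in N2. The synaptic vesicle gene snt-1 was at 54.8, 43.5 and 48.1 CPM and then 38.1, 27.7 and 25.9 CPM, without overlap (-0.64 ± 0.13). CPM are shares of a library, the summed level of the germ granule genes went from 1654 to 2244 CPM in the early hours to 2538 to 3239 CPM in the late hours, and the part of such a shift in the neuronal values was not tested. Of 10 epidermal genes 0 were called, of 13 body muscle genes 1 fell, of 12 pharynx genes 1 fell, or 2 without the 26 h library of the mutant, and of 74 ribosomal protein genes 2 rose. With so few calls, no change of these lists is read from them. The body muscle call was lost without any 1 of the mutant libraries of 28, 30, 32, 34 and 36 h or the N2 libraries of 26 and 28 h. For the vulva 1 of 15 rose and 4 fell, the falling ones including the Notch receptor gene lin-12, at 57.3, 82.5 and 67.4 CPM and then 42.7, 33.2 and 28.4 CPM (-0.85 ± 0.24). Without the 36 h library of the mutant 0 vulva genes rose and 1 fell. Of 9 somatic gonad genes 3 rose and 1 fell, or 1 and 1 without the 26 h or the 36 h library. The gene inx-9, a gap junction gene of the gonadal sheath, was at 5.73, 5.22 and 6.22 CPM and then 7.81, 11.4 and 15.5 CPM and rose by 0.95 ± 0.16. Of 14 seam cell and fusogen genes 2 fell, and 0 without the 26 h or the 36 h library. Of 3 male marker genes tested 0 were called.

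The largest slopes of the strain were picked from the results, and their sizes are descriptions. The gene ttr-14, a transthyretin-related gene (WBGene00011460, chromosome X), was at 0.0644, 0.0337 and 0 CPM and then at 0.486, 27.3 and 292 CPM in let-7(n2853), and at 5.73, 199 and 400.5 CPM in the late hours of N2. It was near 0 until 32 h in the mutant and rose (adjusted p = 0.00042, edgeR). The gene ule-4, named for expression in the uterine lumen, was at 0, 0 and 0.0353 CPM and then 0.449, 4.87 and 30.8 CPM, against 1.45, 36.7 and 87.7 CPM in the late hours of N2. Among the falls, the alpha-tubulin gene tba-8 went from 90.6, 36.4 and 7.31 CPM to 5.01, 3.06 and 0.817 CPM, lower at every hour, with a slope of -3.84 ± 0.36 in the mutant and -4.13 ± 0.37 in N2.

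**Figure D5:**
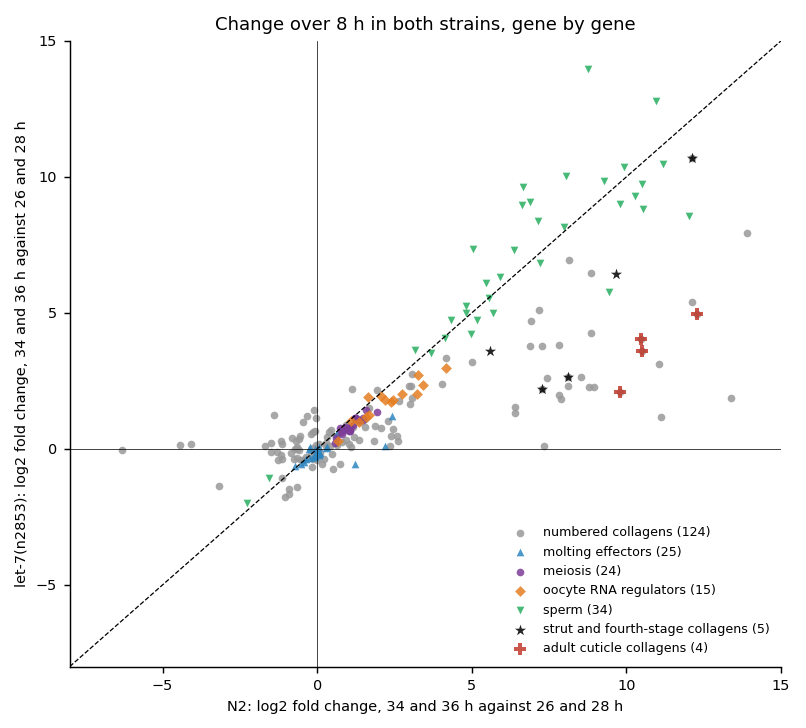
The 8 h change (log2) of each tested member of 7 gene lists in N2 on the horizontal axis and in let-7(n2853) on the vertical axis, with a dashed line where both are equal. Meiosis, oocyte and sperm members lie near the line or to either side of it, and the strut, fourth-stage and adult cuticle collagens all lie below it. The change differed between the strains for 36 of 13333 genes by the test of the difference.

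Across the 13333 genes the slopes of the strains had a Pearson correlation of 0.956, a description over genes, which are not independent and share their libraries. After thinning the mutant counts to the median N2 depth, 34 of the 36 called differences of the 8 h change remained.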

How the data were processed

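Whole-worm total RNA was depleted of ribosomal RNA and made into libraries with the ScriptSeq v2 kit, per the labels' protocols. The authors deposited raw read counts per gene, with no normalization, for 20182 genes; the aligner, annotation and build are not given in the sources used here, and 18778 gene identifiers were paired with a symbol. They also deposited log2 values, which the file's numbers show to be log2(count scaled to a total common to each strain + 8); these served in limma only. Genes of mean CPM 1 or more (13333) were tested in edgeR 4.0.16 (R 4.3.3, TMM, quasi-likelihood, 12 libraries, Benjamini-Hochberg adjusted p under 0.05); DESeq2 1.42.0 and limma 3.58.1 were alternatives. The filter took the mean over both strains, so a gene near 0 in a strain or window passed it only through the hours where it was high. Settings varied were scaling, filter, depth, tool, fit and each library. The closest of 66 library pairs had a chi-square of 22.6 per degree of freedom, so none was counted as a repeat.

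The libraries of both strains share hours, and their deviations from the window means were correlated at every hour (r across genes 0.277 to 0.909), so a fit with the hour as replicate block was run. Genes were named as the 5 smallest p-values of each list in the mutant and the 3 smallest in the strain difference, with all members of the yolk, cuticle, molting regulator and heterochronic lists; mlt-10, mlt-11, nas-37, spe-11, fog-3 and the largest slope and 8 h changes were added after their values were seen. The libraries and gene lists were chosen with earlier results of these data known. On simulated counts for the 13333 genes the mutant's slope test recovered 99% of 4-fold and 20% of 2-fold changes, and its window test 75% and 11%. For the difference between the strains the slope test recovered 75% of 4-fold and 8% of 2-fold changes, and the window test 23% and 1%. The changes were placed in well-counted genes only, with the same dispersion for all genes and no cycling over the hours. Recovery in genes of few counts or in cycling genes was not measured. Of the listed genes 6 were not analysed here.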

Additional observations from a re-analysis of the deposited data

Results flagged for a closer look

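The values below are differences of the 8 h change (34 and 36 h against 26 and 28 h, log2), let-7(n2853) minus N2, called by edgeR at an adjusted p under 0.05. They were called among 13333 genes, and no explanation of them was tested.

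Of the named genes, 25 had a negative difference, the 8 h change of the mutant lying below that of N2. Among collagens of the adult cuticle, the struts or the fourth stage the differences were -6.45 for col-19, -7.69 for col-120, -2.0 for bli-2, -5.48 for col-38 and -5.06 for col-49. Other collagens were at -9.95 (col-181), -7.92 (col-60), -6.52 (col-129), -6.06 (col-106), -5.89 (col-139), -5.05 (col-184), -4.80 (col-20), -3.99 (col-71), -2.33 (col-97) and -1.19 (col-79), and the body-shape collagen rol-1 was at -6.28. In rol-1 the mutant was at 0.386, 1.31 and 0.0706 and then 0.15, 8.0 and 20.5 CPM, and N2 at 0.442, 1.68 and 0.759 and then 72.0, 1178 and 1567 CPM. The remaining genes were dao-4 at -6.16, F58E6.13 at -4.26, E01G4.6 at -3.78, cpg-22 at -2.67, wrt-4 at -2.08, F13A7.12 at -2.0, the cuticlin-like gene cutl-15 at -2.0, the astacin protease gene nas-27 at -1.64 and B0393.5 at -1.55.

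A positive difference was called for 10 genes, and in each of them the 8 h change fell in N2: col-41 at 6.27, oac-29 at 5.6, col-54 at 4.58, dpy-1 at 4.52, col-90 at 4.27, col-156 at 2.66, daf-9 at 2.21, cest-1.1 at 2.18, Y48E1B.8 at 2.07 and acox-1.2 at 1.92. For col-54 the mutant values were 55.5, 390.0 and 250.1 and then 79.1, 69.0 and 378 CPM, and N2 was at 185, 419 and 344 and then 32.2, 10.8 and 15.4 CPM.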

How the results depend on the processing

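Counts of called genes depend on how the hours enter the fit. In let-7(n2853), 0 genes were called between the windows, 378 with no filter on low counts, 1642 with limma, 1920 with DESeq2, 2659 with the slope and 2974 with the 8 h change; leaving out 1 library each gave 0 to 1579. In N2 the 1796 window calls became 3113 with DESeq2, 3732 with the slope, 4582 with the 8 h change, 0 with N2 alone in the fit and 0 with its windows moved 2 h earlier, and 0 to 3190 without 1 library. The window difference between the strains, called for 0 genes, was called for 9 with DESeq2, for 36 with the 8 h change and for 5 with the hour as replicate block (col-38 -5.56, F58E6.13 -4.28, col-49 -5.02, col-71 -4.16 and dao-4 -5.89), and the block changed no other call among the named genes. The slope calls of let-7(n2853), 2659, became 1760 at a mean CPM of at least 5, where fewer genes were tested, and 1847 to 2689 without 1 library; those of N2 ran from 2463 to 3876 without 1 library. The slope difference, 0, was 13 with DESeq2 and 0 to 1 without 1 library. The 8 h calls of let-7(n2853), 2974, became 1907 at a mean CPM of at least 5 and 1927 to 2989 without 1 library; those of N2 ran from 2671 to 5187. The 36 called differences of the 8 h change became 95 with limma, 97 with no filter, 1.2e+02 with DESeq2 (40 higher and 79 lower) and 14 to 103 without 1 library. Of the 36, DESeq2, limma and no filter kept 36, and leaving out the mutant library of 36, 26 or 28 h kept 13, 25 and 28. Apart from the fits whose construction shows it, the cause was not tested. Under the 8 h change the direction turned from the windows in N2 for dpy-2 (-0.48), dpy-3 (-0.45), dpy-9 (-0.41), dpy-8 (-0.46) and dpy-7 (-0.50), and in let-7(n2853) for cpg-22 (0.47). The 8 h fit has 2 residual degrees of freedom, and each hour is 1 library. In the library of lowest depth, 12586079 counts, genes of a few counts cannot show a change.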
